A study of Arabidopsis thaliana with 64 samples.

Results

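GH3.1, GH3.3 and GH3.5 encode GH3 acyl acid amido synthetases, enzymes that join the auxin indole-3-acetic acid (IAA) to amino acids. They were taken as the probe sets that the annotation of the array gives to these 3 genes alone, 3 of 22810 probe sets on the array. Their loci are AT2G14960 for GH3.1, AT2G23170 for GH3.3 and AT4G27260 for GH3.5, which the annotation lists under its other name, WES1. Roots of hydroponic Arabidopsis thaliana were collected 4 h after transfer to media holding any combination of 5 signals, and total RNA of each sample was hybridised to 1 Affymetrix array. The series has 64 arrays in 32 groups of 2. Of these groups, 16 received IAA at 500 nM and 16 did not. The 16 backgrounds, each with and without IAA, are the combinations of nitrate, ammonium, kinetin (a cytokinin, 500 nM) and abscisic acid (ABA, 1 µM). They run from none of these signals to all of them. Nitrate or ammonium was given at 1 mM alone and at 0.5 mM each when both were present, with KCl and DMSO as mock treatments. All plants, controls included, had been raised on ammonium succinate and had spent the last day before treatment on medium without nitrogen. The labels give no ecotype or genotype, and they do not say whether replicates came from separate cultures. The p-values below thus rest on a spread between samples that may be no more than technical. The small number of arrays a group also limits precision.

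Auxin acts by binding the TIR1/AFB receptors, which marks the Aux/IAA repressors for destruction and frees the ARF transcription factors to act on their target genes. Many GH3 genes are classical targets of this pathway. The conjugates they make are storage forms or are on the way to degradation, so GH3 enzymes lower the amount of active auxin and act as a feedback on the hormone. GH3.1 and GH3.3 are known as early auxin-induced genes, GH3.3 also for its part in adventitious rooting, and GH3.5 for accepting salicylic acid beside IAA.

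Values are the deposited intensities of the probe sets on a linear scale. Intensities of different probe sets cannot be set against each other as amounts of RNA, so each gene is compared with itself across arrays, and its place relative to the median probe set of the same array is given as a guide to how bright it was. The array medians ranged from an intensity of 103 to 303, and duplicate arrays correlated at 0.724 to 0.897 across probe sets. The 3 arrays with the lowest medians all had IAA, and so had the array with the highest, replicate 2 of nitrate with IAA. Mean array medians with and without IAA differed by -0.03 on the log2 scale. The SD of the log2 array medians was 0.36 with IAA and 0.28 without it. The log2 ratio of 3' to 5' actin control probe sets, a sign of RNA quality and labelling, averaged 4.65 with IAA and 4.29 without it. A second pair of actin probe sets stood the other way, at 6.30 with IAA and 6.41 without it, and the part of these ratios in the results was not tested beyond the fits that carried them as covariates. EXPA7 and EXPA18, expansins of root hair cells and the 2 of 16 listed root markers named in the annotation, were above the array median on all 64 arrays. EXPA18 nevertheless fell by 0.68 on the log2 scale with IAA (limma, adjusted p = 0.00126) and EXPA7 stood at -0.24, and their summed intensity ranged from 340.2 to 2407 with IAA and from 791 to 2389.8 without it. The part of this in the GH3 results was not tested. Of 16 listed markers of green tissue, 3 were named, and none of them passed with IAA. Their summed intensity ranged from 162 to 1249 with IAA and from 216 to 1007 without it, and none was at 0 on any array.

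GH3.3 was the member with the clearest separation. Its intensity was 1449.9 at the lowest, 4252 at the median and 10263 at the highest over the 32 arrays with IAA, against 5.48, 36.7 and 334 over the 32 arrays without it. Every array with IAA was thus above every array without it, as for 0.0308% of the probe sets tested (7 of 22746). On the arrays with IAA it was always brighter than the median probe set, while without IAA it was dimmer than the median on 26 of 32 arrays. IAA alone gave the highest group, at 6333 and 10263, against 146 and 23.2 in the mock group. The lowest group with IAA was IAA with kinetin and ABA, at 1808 and 1449.9, against 44.0 and 52.2 for kinetin with ABA. Of the groups without IAA the lowest was nitrate with kinetin, at 14.0 and 6.53. The highest was nitrate with ammonium, kinetin and ABA, at 197 and 334, still below any array with IAA.

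GH3.1 was dim throughout. With IAA its intensity was 20.6, 135 and 267 at the lowest, median and highest of 32 arrays, against 6.23, 17.2 and 104 without IAA. It lay below the median probe set of the array on 26 of 32 arrays with IAA and on 32 of 32 without it. The arrays with and without IAA overlapped: 20 of 32 arrays with IAA were above the highest array without it. The share of all probe sets with as many was not computed. The 2 arrays of nitrate with ammonium, IAA and kinetin disagreed most, at 20.6 and 267, against 6.54 and 33.3 in the same medium without IAA. The table used here holds no detection calls, so whether GH3.1 or GH3.3 was above background without IAA was not analysed.

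GH3.5 was bright in all groups and moved least. It had 499, 761 and 3347 as its lowest, median and highest intensity with IAA, against 275, 424 and 662 without it, and it was above the array median on all 64 arrays. The arrays with and without IAA overlapped here too, with 22 of 32 arrays with IAA above the highest without it. Again the share of all probe sets with as many was not computed. The value of 3347 came from replicate 1 of nitrate with ammonium and IAA, whose other array read 630 (629.686), against 595 and 470.1 for nitrate with ammonium. No other array of GH3.5 passed 1695 (1694.99, IAA with kinetin). The 3' to 5' log2 ratios of GAPDH and ubiquitin control probe sets averaged 4.98 and 2.87 with IAA. They were 2.79 and 1.70 on the array of 3347, and 3.81 and 1.73 on that of 1695. The lowest of all, 1.97 and 0.68, were on replicate 1 of IAA with kinetin and ABA, where GH3.5 read 975. The part of these ratios in the GH3.5 values was not tested.

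**Figure D1:**
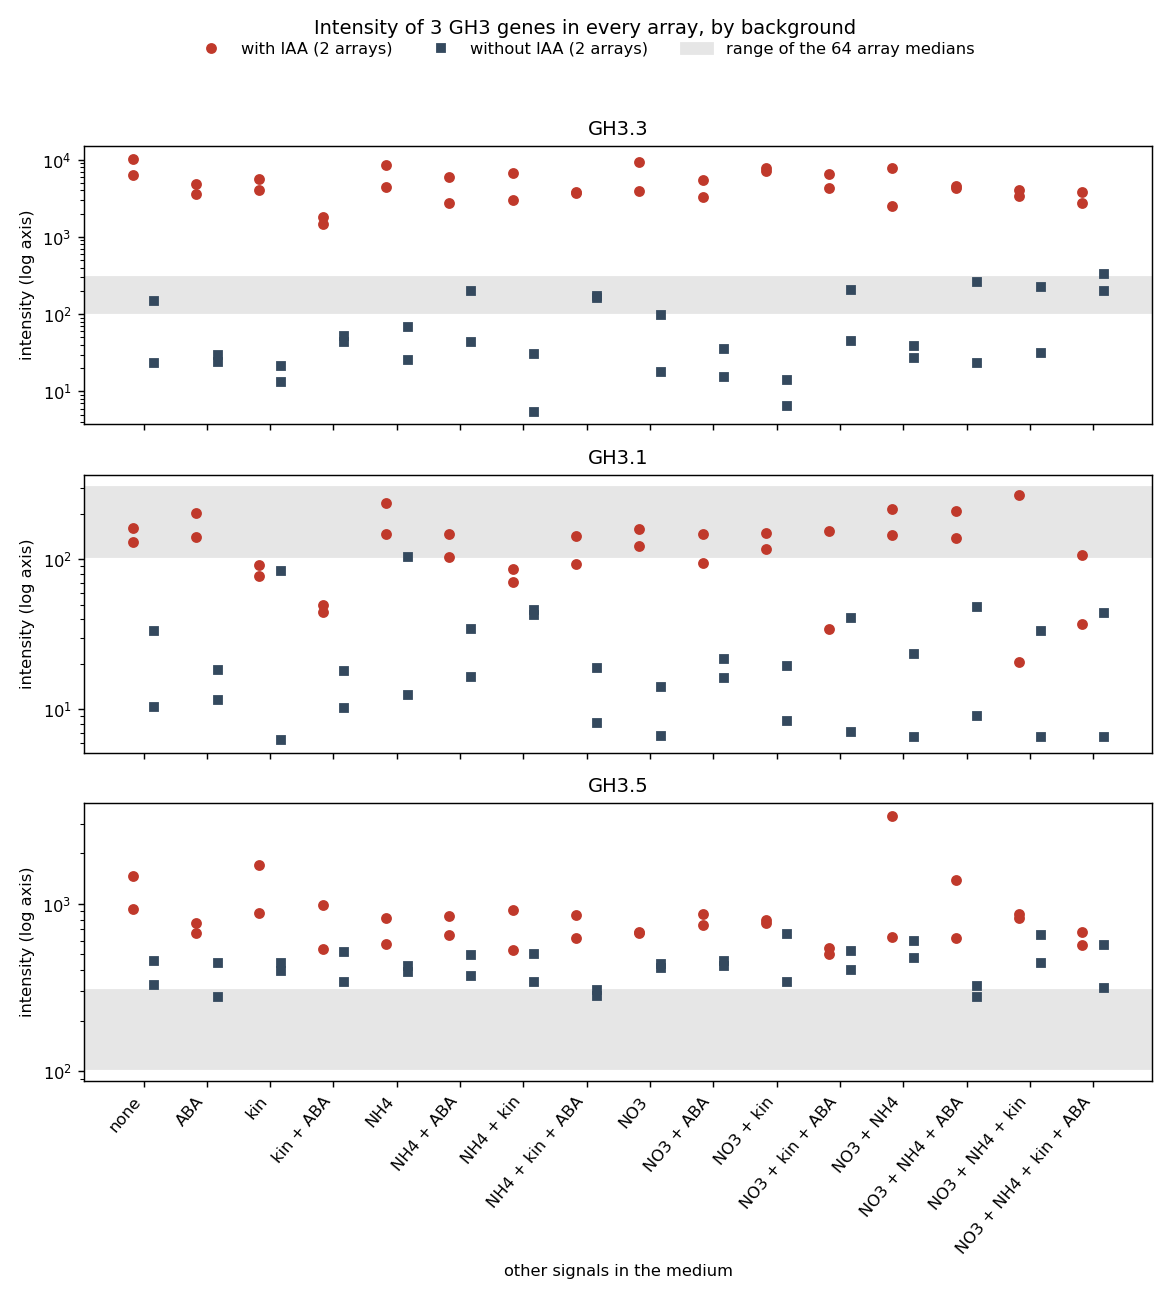
Intensity of GH3.3, GH3.1 and GH3.5 (log axis, 1 panel a gene) on each of the 64 arrays, in the 16 backgrounds of nitrate (NO3), ammonium (NH4), kinetin (kin) and ABA. Circles to the left are the 2 arrays with IAA, squares to the right the 2 without, and the grey band is the range of the 64 array medians. All circles of GH3.3 lie above all of its squares, whereas those of GH3.1 and GH3.5 overlap in some backgrounds.

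Within a background, the mean with IAA was higher than the mean without it in 16 of 16 backgrounds for each of the 3 genes. The share of all probe sets with such a count of higher means was not computed. Both IAA arrays were above both arrays without IAA in 16 backgrounds for GH3.3, 14 for GH3.5 and 12 for GH3.1. Of all probe sets, 0.0703% did so in 16 backgrounds, 0.154% in at least 14 and 0.303% in at least 12. For GH3.5 the exceptions were nitrate with kinetin and ABA, at 499 and 545 with IAA against 518 and 399 without it, and the medium with all 4 other signals, at 678 and 562 (561.818) with IAA against 315 and 562 (561.882) without it. The 4 exceptions of GH3.1 all held kinetin. In kinetin alone they were 92.0 and 77.6 with IAA against 83.8 and 6.23 without it.

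Over all backgrounds IAA raised the 3 genes, where 2.65% of the probe sets passed in either direction and 1.27% rose. GH3.3 rose by 6.53 ± 0.24 (SE) on the log2 scale (limma, Benjamini-Hochberg adjusted p = 1.76e-21, 32 arrays against 32). GH3.1 rose by 2.55 ± 0.27 and GH3.5 by 0.96 ± 0.13 (limma, adjusted p = 1.16e-08 and 2.07e-06). These changes are on the log2(intensity + 1) scale, which depends on the pseudocount for dim probe sets: with a pseudocount of 64 the change of GH3.1 was 1.07, that of GH3.3 was 5.16 and that of GH3.5 was 0.86, and all passed.

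The sizes of the 3 responses were then compared within arrays, over 3 pairs of genes. The IAA change of GH3.3 exceeded that of GH3.1 by 3.98 and that of GH3.5 by 5.57 on the log2 scale, and it was the larger in 16 of 16 backgrounds in both pairs. GH3.1 changed by 1.59 more than GH3.5, also in 16 of 16 backgrounds. Each of these differences had a two-sided permutation p of 1e-05, the smallest that 100000 permutations within backgrounds can give, and 1e-05 after adjustment over the 3 pairs. With a pseudocount of 64 the last difference was 0.21 (permutation, adjusted p = 0.127), so the order of GH3.1 and GH3.5 rested on how the dim intensities of GH3.1 were put on the log scale. The lead of GH3.3 was 4.09 over GH3.1 and 4.301 over GH3.5 with that pseudocount.

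The order of the 32 group means followed IAA for GH3.3. Its 16 groups with IAA took the 16 highest places, and a gap of 2.65 on the log2 scale separated them from the rest, against a residual SD between duplicates of 0.98. Of the 31 steps between neighbouring groups, 1 other, of 0.99, exceeded that SD. It lay between nitrate with ammonium, IAA, kinetin and ABA and the lowest group with IAA, IAA with kinetin and ABA. No other neighbours in the order of GH3.3 differed by more than that SD. GH3.1 also had its 16 IAA groups in the 16 highest places, but no step between neighbours reached its residual SD of 1.102 and the largest was 0.60. Of the 16 highest groups of GH3.5, 15 had IAA, and no step reached its residual SD of 0.48. How many of all probe sets had 15 or 16 IAA groups in these places was not counted.

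Of 11 listed GH3 genes, the annotation of the array named 5, and the remaining 2 beside the members, GH3.9 and GH3.17, did not pass with IAA. GH3.17, which makes IAA-glutamate in roots, had an intensity of 98.8, 392.01 and 734 at the lowest, median and highest array with IAA, against 216, 415 and 1126 without it. Its averaged IAA difference was -0.27 ± 0.12 (limma, adjusted p = 0.323), and its mean was higher with IAA in 6 of 16 backgrounds. GH3.9, a member linked to root growth, read 2.97, 103 and 292 with IAA, against 19.7, 107 and 288 without it, with a difference of -0.16 ± 0.22 (limma, adjusted p = 0.861) and a higher mean in 7 of 16 backgrounds. The 2 arms overlapped for both genes. GH3.17 did respond to other signals: it rose by 0.55 ± 0.12 with kinetin (limma, adjusted p = 0.00548), where 2.07% of probe sets passed, and fell by 0.50 on the log2 scale with ABA (limma, adjusted p = 0.00164), where 27.3% passed.

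Among the rest of the auxin pathway, the annotation named few genes. Lists covered GH3 genes, other enzymes of auxin removal, auxin synthesis, auxin transport, auxin perception and Aux/IAA repressors. In these, 19 genes had a probe set annotated to them alone, but none of the 16 listed transport and 14 listed perception genes did. The annotation has no entry for 8794 of the 22810 probe sets, so genes not named may still have a probe set on the array. IAA raised 5 of the 19 and lowered none, and without the 3 GH3 members it raised 2 of 16, where 1.27% of all probe sets rose and 1.38% fell. The median change of those 16 was 0.01 on the log2 scale, beside -0.02 over all probe sets. Both that rose are Aux/IAA genes, whose products repress auxin-responsive transcription. IAA29 stood at 54.0, 290 (289.89) and 959 with IAA, against 6.91, 57.0 and 239.7 without it, and rose by 2.65 ± 0.28 (limma, adjusted p = 1.08e-08). IAA30 stood at 196, 631 and 4499 with IAA, against 27.8, 201 and 453 without it, and rose by 2.12 ± 0.18 (limma, adjusted p = 5.95e-11). Their ranges with and without IAA overlapped, unlike those of GH3.3.

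The other 5 named Aux/IAA genes lay between -0.36 (IAA31) and 0.14 (IAA18) and did not pass. Of the 4 named genes listed under auxin removal, UGT84B1 and UGT74D1, glucosyltransferases that act on auxins, stood at -0.12 and -0.03, and AT1G14130 and AT1G14120 at 0.25 and -0.37. The 3 named YUCCA genes, flavin monooxygenases of IAA synthesis, ranged from -0.34 (YUC4) to 0.13 (YUC2). None of these 7 genes passed.

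**Figure D2:**
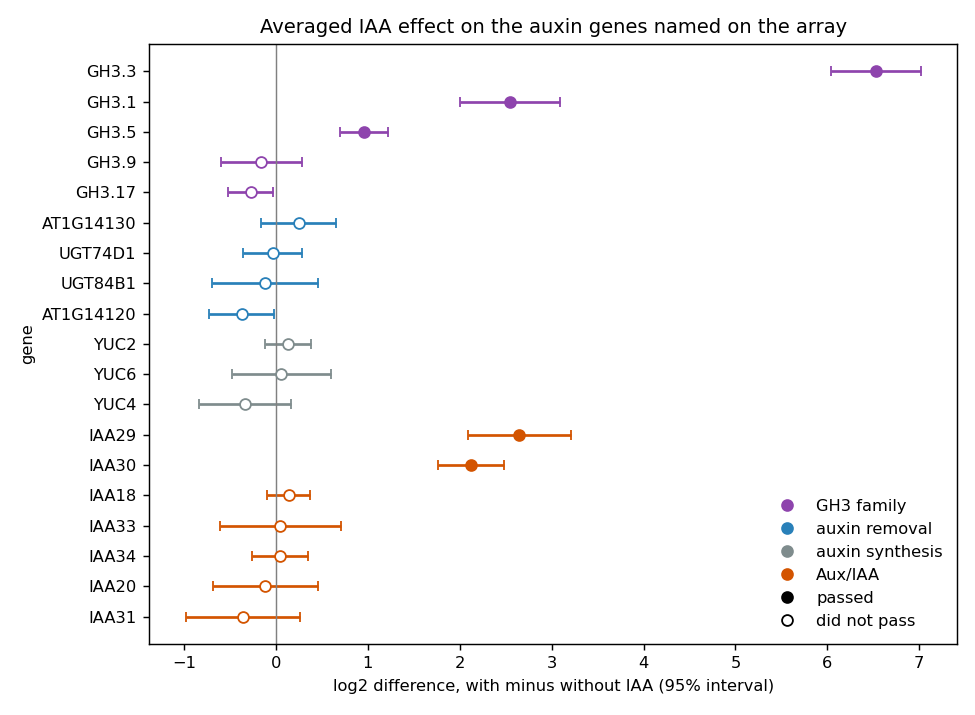
Averaged log2 difference with minus without IAA (horizontal axis, with its 95% interval, 32 arrays against 32) of the 19 auxin genes named in the annotation, coloured by list. Filled points passed at an adjusted p under 0.05 (limma). GH3.3 at 6.53 lies far to the right of the other genes, IAA29, GH3.1 and IAA30 lie between 2.12 and 2.65, and GH3.5 at 0.96. The remaining genes did not pass. Their intervals include 0 except those of GH3.17 (-0.52 to -0.03) and AT1G14120 (-0.73 to -0.02), and they reach as far as -0.98 (IAA31).

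The response to IAA was next described by nitrogen supply, which bears on whether nutrients and auxin act on these genes together. Within a supply, 8 arrays with IAA were set against 8 without. GH3.3 with IAA ranged from 1449.9 to 10263 without nitrogen, from 3298 to 9276 on nitrate, from 2757 to 8497 on ammonium and from 2500.2 to 7879 on both ions. The same media without IAA gave 13.4 to 146, 6.53 to 206, 5.48 to 202 and 23.3 to 334. No range with IAA met its counterpart without it, which follows from the separation over all 64 arrays given above. The share of all probe sets with such a separation in each supply was not computed. GH3.3 rose by 6.85 ± 0.48 without nitrogen, 7.44 on nitrate, 6.34 on ammonium and 5.48 on both, and each passed. With a pseudocount of 64 these differences were 5.31, 5.73, 5.08 and 4.53. Of all probe sets 0.475% passed without nitrogen, 0.369% on nitrate, 0.44% on ammonium and 0.29% on both.

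GH3.1 rose by 2.46 without nitrogen (limma, adjusted p = 0.0166), 2.90 on nitrate (adjusted p = 0.00256) and 2.67 on both ions (adjusted p = 0.0097). On ammonium alone the difference was 2.15, with an adjusted p of 0.0599. With a pseudocount of 64 all 4 were smaller by over 1.5 times, at 0.98, 1.18 and 1.15 for those that passed and 0.96 on ammonium, which then passed (adjusted p = 0.018). The call without nitrogen was lost when replicate 1 of mock, replicate 2 of ABA or replicate 2 of kinetin was left out (2.02 at the lowest, adjusted p = 0.103 at the highest). That on both ions was lost without replicate 1 of nitrate with ammonium and kinetin or replicate 2 of nitrate with ammonium, IAA and kinetin.

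GH3.5 rose without nitrogen, by 1.24 ± 0.25 (limma, adjusted p = 0.0096), with 8 arrays at 533 to 1695 with IAA against 8 at 275 to 517 without it. On the other supplies the differences were 0.61 on nitrate, 0.90 on ammonium and 1.08 on both, with adjusted p-values of 0.608, 0.15 and 0.0522. The call without nitrogen was lost without replicate 1 of IAA with kinetin (adjusted p = 0.0529). The interactions below, not these separate calls, test whether nitrogen changed the response.

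The same arrays were also divided by the other hormones, again 8 with IAA against 8 without. The 2 divisions share all their arrays and are not independent of each other. With no other hormone 1.03% of the probe sets passed, and 0.51%, 0.422% and 0.409% passed beside kinetin, ABA and both. GH3.3 rose in all 4, by 7.11 with no other hormone, 7.81 beside kinetin, 6.47 beside ABA and 4.73 ± 0.48 beside both hormones. With a pseudocount of 64 these were 5.76, 5.72, 5.12 and 4.06, so the value beside kinetin was then no longer above that with no other hormone. In the last case the 8 arrays with IAA ran from 1449.9 to 6414 and the 8 without from 44.0 to 334, while with no other hormone they ran from 2500.2 to 10263 with IAA and from 17.9 to 146 without it. The smaller difference beside kinetin and ABA thus came with lower values on the side with IAA and higher ones on the side without it.

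GH3.1 rose by 3.166 ± 0.53 with no other hormone (limma, adjusted p = 0.000376), with 123 to 237 on the 8 arrays with IAA against 6.57 to 104 without it, and by 2.83 beside ABA (adjusted p = 0.00372). Beside kinetin the difference was 2.03 and beside kinetin and ABA 2.16, with adjusted p-values of 0.0865 and 0.0572. A pseudocount of 64 gave GH3.1 smaller differences of 1.39 with no other hormone, 1.29 beside ABA, 0.83 beside kinetin and 0.77 beside both. GH3.5 rose by 1.11 with no other hormone (adjusted p = 0.0156) and by 1.08 beside ABA (adjusted p = 0.038). Its differences beside kinetin and beside both, 0.91 and 0.71, did not pass, with adjusted p-values of 0.132 and 0.384. Over all probe sets the median difference was 0.15 with no other hormone and -0.15 beside kinetin and ABA, which bears on differences as small as those of GH3.5. Both calls of GH3.5 were lost when single arrays were left out. The first was lost without replicate 1 of mock, replicate 2 of IAA or replicate 1 of nitrate with ammonium and IAA (0.81 and adjusted p = 0.0596 without the last), and the second without any 1 of 14 arrays (adjusted p up to 0.193).

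**Figure D3:**
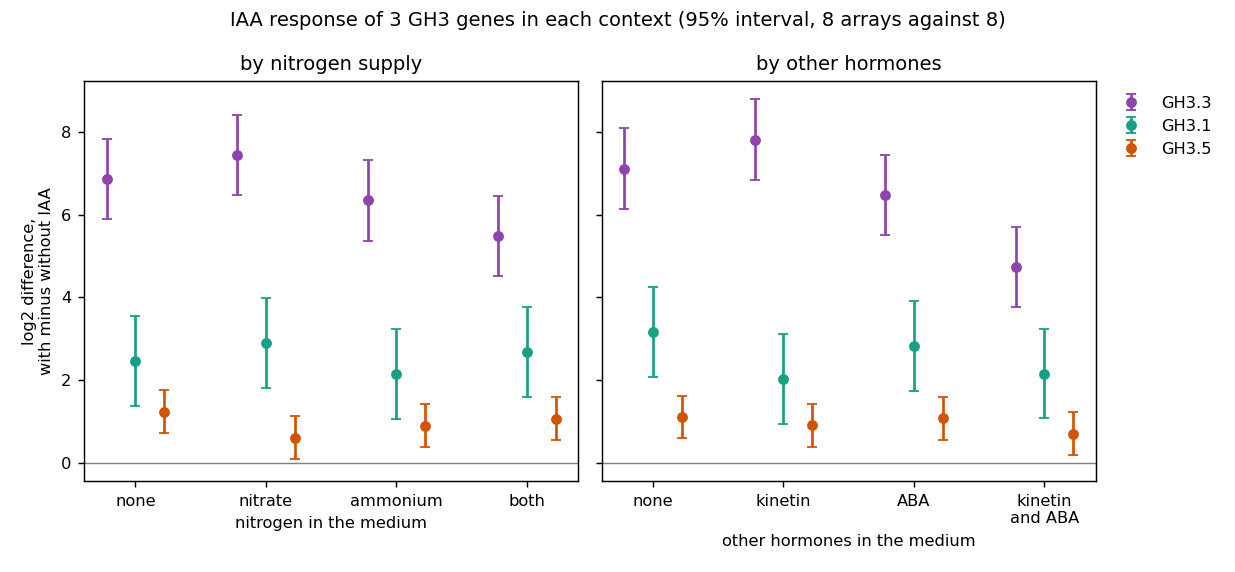
Log2 difference with minus without IAA (vertical axis) of GH3.3, GH3.1 and GH3.5 by nitrogen supply (left) and by other hormones (right), each point from 8 arrays against 8, with its 95% interval. GH3.3 lies highest in every context, between 4.73 beside kinetin and ABA and 7.81 beside kinetin (4.06 and 5.72 with a pseudocount of 64 in place of 1). All intervals of the 3 genes lie above 0, but they are not adjusted over probe sets, and several differences of GH3.1 and GH3.5 did not pass.

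The interactions ask whether another signal changed the response to IAA, as the difference between the IAA change with and without that signal. None of the 3 genes passed in any of the 4. The background was as low: the moderated test of limma called 0% of the probe sets for nitrate and for ammonium (0 probe sets each, with 662 and 815 at an unadjusted p under 0.05), 0.00879% for kinetin and 0.0396% for ABA. For GH3.3 the largest was with ABA, at -1.86 ± 0.48 (95% interval -2.83 to -0.89, limma, unadjusted p = 0.000433, adjusted p = 0.307). The interval lay below 0, but the adjusted p did not pass here or under any other setting tried (0.0567 to 0.965). Over those settings the size of this interaction ranged from -2.19 to -1.15. With ammonium it was -1.24 ± 0.48 (95% interval -2.21 to -0.26, limma, adjusted p = 1), with kinetin -0.52 and with nitrate -0.14.

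GH3.1 had its largest interaction with kinetin, at -0.90 (95% interval -1.98 to 0.18, limma, adjusted p = 0.735), and 0.48 with nitrate, -0.27 with ammonium and -0.11 with ABA. The 4 interactions of GH3.5 lay between -0.29 (kinetin) and 0.07 (ammonium), with 95% intervals that reached -0.80 at one end and 0.58 at the other. Those of GH3.1 ran from -1.98 to 1.57. The F test of limma on all interactions of 3 or more signals called 0% of the probe sets (0 in all) and gave an adjusted p of 1 for each of the 3 genes.

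Each interaction has a side with IAA and a side without it, 16 arrays against 16. Without IAA, ABA raised GH3.3 by 1.28 ± 0.34 (95% interval 0.60 to 1.97, limma, adjusted p = 0.00768), where 13% of all probe sets passed, 6.11% rose and the median probe set stood at -0.12. The 16 arrays with ABA and no IAA ran from 15.2 over a median of 48.5 to 334, against 5.48, 26.5 and 222 for the 16 with neither. The ranges overlapped almost fully. The fit gave all 32 groups of GH3.3 the same residual SD, 0.98. The SD between duplicates reached 2.42 without IAA (nitrate with ammonium and ABA) and 1.17 with IAA (nitrate with ammonium and IAA). The SE and p-value of the rise without IAA thus draw on the steadier arrays with IAA and may be too small. A fit with a separate spread for the arrays without IAA was not run. With IAA, ABA came with a difference of -0.58 ± 0.34 (limma, adjusted p = 0.249, 18.4% of probe sets called), at 1449.9, 3769 and 6414 with ABA against 2500.2, 5951 and 10263 without it. That difference passed with a pseudocount of 64 (-0.57, adjusted p = 0.0432). The rise without IAA kept its direction under each setting tried but was 0.58 with a pseudocount of 64 (adjusted p = 0.0498) and did not pass on either replicate alone (adjusted p = 0.0881 and 0.192).

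The ABA difference of GH3.3 without IAA was also read by background, 2 arrays against 2, with no test in single media. Beside kinetin the 2 ABA arrays read 44.0 and 52.2, against 13.4 and 21.0 with kinetin alone. Beside ammonium and kinetin they read 160.4 and 171, against 5.48 and 30.3. Beside nitrate and kinetin they read 44.8 and 206, against 14.0 and 6.53. In these 3 media both ABA arrays were above both others, and how many of all probe sets did so was not counted. In the medium with none of the other signals ABA arrays read 29.2 and 24.2, against 146 and 23.2 in mock, and on nitrate 35.2 and 15.2, against 17.9 and 96.4. In these and the other 3 media the arrays with and without ABA overlapped. Whether the ABA difference depended on kinetin within the arrays without IAA was not tested. The summed intensity of the 3 green tissue markers over the arrays without IAA was 216 to 1007 with ABA and 302 to 926 without it, and 1 of the 3 passed with ABA over all backgrounds: LHCB4.1 rose by 0.84 (limma, adjusted p = 0.00906), while LHCB4.2 stood at -0.69 and RCA at -0.05 (limma, adjusted p = 0.0927 and 0.859). Both root hair expansins fell with ABA over all backgrounds, EXPA7 by 0.51 and EXPA18 by 0.47 on the log2 scale (limma, adjusted p = 0.000724 and 0.00735). The second actin ratio averaged 6.13 with ABA and 6.58 without it, and the first 4.47 on both sides. The part of these markers and ratios in the GH3.3 result was not tested beyond the fits that carried a ratio as a covariate.

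**Figure D4:**
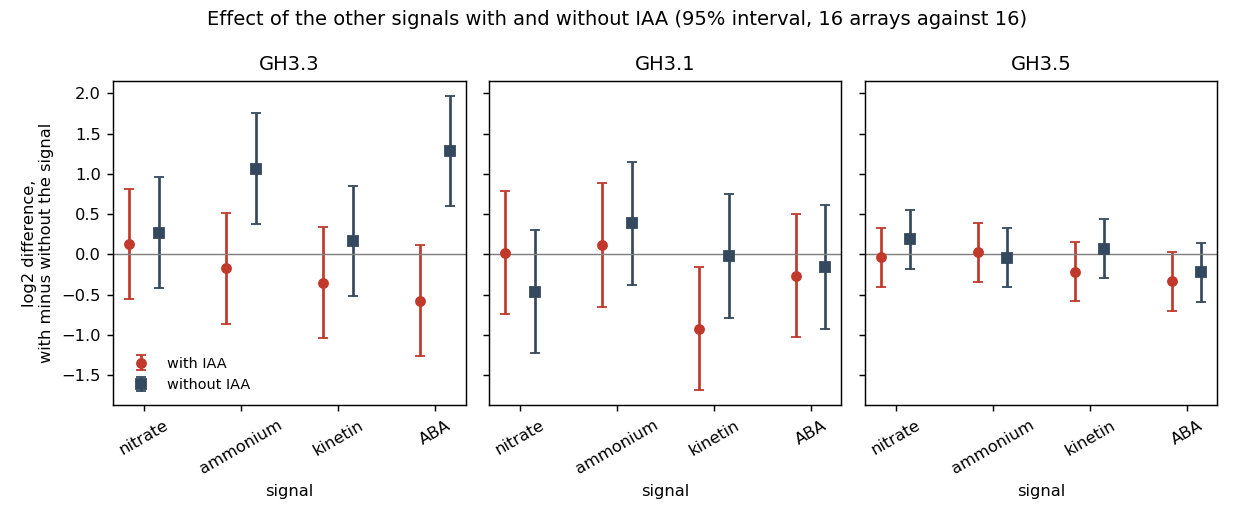
Log2 difference with minus without nitrate, ammonium, kinetin or ABA (horizontal axis) in GH3.3, GH3.1 and GH3.5, on arrays with IAA (circles, left) and without it (squares, right), each from 16 arrays against 16 with its 95% interval. The square of GH3.3 for ABA, at 1.28, is the 1 value that passed after adjustment (limma). For each gene the intervals use 1 residual SD over all 32 groups. The points of GH3.5 lie between -0.34 and 0.19.

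Ammonium without IAA came with a difference of 1.06 ± 0.34 in GH3.3, on arrays of 5.48 to 334 with ammonium (median 55.9) against 6.53 to 206 without it (median 26.7). It did not pass (limma, adjusted p = 0.504), in a comparison where 0.0835% of the probe sets did. With IAA, where 0.101% passed, the ammonium difference was -0.17. For GH3.1 the largest value of this kind was -0.92 ± 0.38 for kinetin with IAA (limma, adjusted p = 0.379), at 20.6, 89.4 and 267 with kinetin against 94.9, 148 and 237 without it, and the difference without IAA was -0.02. In those comparisons 1.2% of the probe sets passed with IAA and 1.03% without it. GH3.5 had no difference beyond -0.34 with or without IAA, and none of the remaining differences of the 3 genes passed. For nitrate, 0.347% of the probe sets passed with IAA and 0.321% without it.

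Averaged over all backgrounds, no other signal moved any of the 3 genes past the threshold. Nitrate came with differences of 0.20 in GH3.3, -0.22 in GH3.1 and 0.08 in GH3.5, where 0.884% of the probe sets passed, and ammonium with 0.45, 0.25 and -0.01, where 0.506% did. In 8 of the 16 backgrounds adding one of these ions also brought the other from 1 to 0.5 mM. The kinetin differences were -0.09 in GH3.3, -0.47 in GH3.1 and -0.07 in GH3.5. For ABA they were 0.35, -0.21 and -0.28. Over all probe sets the median ABA difference was -0.19, and -0.05 after quantile normalization between arrays. The ABA difference of GH3.5 (limma, adjusted p = 0.103) was the closest to the threshold, and it passed when replicate 2 of nitrate with ammonium and IAA was left out (-0.35, adjusted p = 0.0129).

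The 3 genes moved together across groups mainly along the axis of IAA. Over the 32 group means on the log2 scale, Pearson's r was 0.887 between GH3.3 and GH3.1, 0.794 between GH3.3 and GH3.5 and 0.810 between GH3.1 and GH3.5. Over the 16 groups with IAA these were 0.637, 0.182 and 0.355, and over the 16 groups without IAA -0.194, -0.270 and -0.084. The deviations of the 64 arrays from their group means correlated at 0.065 to 0.136 between the genes. All these points share arrays, and the correlations are given as a description.

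Over the 32 group means, the named genes with a pattern most like that of GH3.3 were HAT2 (r = 0.946), an auxin-induced homeodomain-leucine zipper gene, CLE44 (0.926), which encodes a signalling peptide of the vascular cambium, AT3G09280 (0.920), LBD29 (0.907), a LOB-domain gene of lateral root initiation, and GH3.1 (0.887). For GH3.1 they were LBD29 (0.920), AT4G37295 (0.892), GH3.3 (0.887), AT3G09280 (0.883) and AT3G26760 (0.869). For GH3.5 they were LBD29 (0.867), AT4G37295 (0.857), AT3G26760 (0.830), GH3.1 (0.810) and HAT2 (0.803). All of these genes passed for the averaged IAA effect, from 1.19 for AT3G26760 to 3.82 for LBD29 among those that are not members. Since they were picked on the same arrays by a pattern divided by IAA, this was largely built in. Over just the 16 groups that held IAA, other genes came first: AT5G49780 (0.862), AT5G08500 (0.861) and AT2G24250 (0.856) for GH3.3, AT1G66360 (0.840), AT1G33930 (0.814) and AT5G61570 (0.805) for GH3.1, and FLDH (0.854), AT5G01610 (0.845) and AT1G01940 (0.833) for GH3.5. None of these 9 genes passed for the averaged IAA effect, and the 3 members shared none of them. They had the highest r of many probe sets over 16 means, and how high unrelated probe sets reach was not computed.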

How the data were processed

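The authors deposited 1 intensity per probe set and array, on a linear scale, for 22810 probe sets. How the authors summarised probes, and with which software, is not given in the sources used here. In the deposited intensities the mean over probe sets, without the lowest and highest 2%, was 500 on every array, so each array had been scaled to a common level, and array medians still ranged from 103.085 to 302.907. Per the labels' protocols, total RNA was prepared with Trizol and carried a biotin label.

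The 64 control probe sets were left out and 22746 were tested. Intensities were taken as log2(intensity + 1), with no filter on dim probe sets. Means of the 32 groups were fitted with limma 3.58.1 (R 4.3.3, lmFit and eBayes), and effects were contrasts averaged over backgrounds, interactions with IAA, and a moderated F test of terms of 3 or more signals. Benjamini-Hochberg adjustment ran within a comparison over all 22746 probe sets, with 0.05 as the threshold for adjusted p-values. Differences between members were tested by permuting IAA labels within the 16 backgrounds (100000 resamples, Python 3.11.15 with numpy 2.4.6). The scripts were tested on simulated data. Probe sets were named through the platform annotation, in which 13513 name 1 gene, 503 several and 8794 have no entry, and 13436 of the first matched RefSeq genes of TAIR10.1, used for names only. No coordinates or sequences were used here.

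The members, the gene lists and the alternatives were chosen with earlier results of these data known. The genes reported are the 3 members and every gene of the 6 auxin and 2 marker lists with a probe set annotated to it alone. Also reported are the 5 named genes most correlated with each member over the 32 group means, and the 3 most correlated over the 16 groups with IAA. The alternatives were a pseudocount of 64, leaving out the dimmest 40% of probe sets, quantile normalization, the array median or an actin ratio as a covariate, array weights, a replicate block, leaving out the 6 arrays of extreme median, leaving out each array, and single replicates. A second actin ratio was added after the data were seen.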

Additional observations from a re-analysis of the deposited data

How the results depend on the processing

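Up to 12 settings were run for each of 78 results for the 3 genes (75 changes and 3 differences between genes). The 3 differences between genes were run only with a pseudocount of 64, with quantile normalization and with each array left out. Of the 78 results, 36 kept direction and call under every setting run for them. Among these were the averaged IAA effect and each IAA effect of GH3.3 by nitrogen and hormone. A call was lost under some setting in 7 results and gained in 9, and the sign turned in 26. None of the 23 results that passed on all arrays turned sign. GH3.1 was among the dimmest 40% of probe sets and so has no value without them.
Pseudocount of 64: calls were gained for ABA with IAA in GH3.3 (-0.57), IAA on ammonium in GH3.1 (0.96) and IAA on both ions in GH3.5 (0.98), GH3.1 minus GH3.5 lost its call (0.21), and kinetin without IAA in GH3.1 turned to 0.015.
Quantile normalization: calls were gained for IAA beside kinetin (2.12) and beside kinetin and ABA (2.33) in GH3.1 and for IAA on both ions in GH3.5 (1.02). In GH3.1, ABA averaged turned to 0.0022, the ABA interaction to 0.062, nitrate with IAA to -0.073, ammonium with IAA to -0.038 and ABA with IAA to 0.033, and in GH3.5 ammonium averaged turned to 0.0014 and kinetin without IAA to -0.0033.
Array median as a covariate: the same calls of GH3.1 (2.08 and 2.36) and GH3.5 (1.07) were gained. In GH3.1 the ABA interaction turned to 0.043, nitrate with IAA to -0.048 and ammonium with IAA to -0.014, and in GH3.5 ammonium averaged to 0.0057.
Actin ratio as a covariate: GH3.1 gained IAA on ammonium (2.28), GH3.5 lost IAA with no other hormone (1.25), nitrate with IAA (-0.061) and kinetin without IAA (0.17) turned in GH3.1, and ammonium averaged turned in GH3.5 (0.0038). With the second ratio, chosen after the data were seen, GH3.5 gained ABA averaged (-0.38), and nitrate averaged (-0.025), ammonium averaged (0.021) and ammonium without IAA (0.020) turned in it.
Array weights: IAA on ammonium was gained in GH3.1 (2.15) and GH3.5 (0.90), IAA beside kinetin was gained in GH3.5 (0.91), and IAA on both ions was lost in GH3.1 (2.67, adjusted p = 0.0873).
Without the 6 arrays of extreme median: GH3.5 gained ABA averaged (-0.41), ABA with IAA (-0.55), IAA on ammonium (0.90) and IAA on both ions (1.34), and GH3.1 lost IAA without nitrogen (2.41). The nitrate interaction of GH3.3 turned to 0.076, the ammonium and ABA interactions of GH3.1 to 0.010 and 0.085, and in GH3.5 ammonium averaged to 0.061, the nitrate interaction to 0.019 and nitrate with IAA to 0.16. Without the dimmest 40% of probe sets, GH3.5 gained IAA on both ions (1.08).
Replicate block: the labels do not say what a replicate number shares, and deviations of same-numbered arrays correlated at a median of 0.049 (-0.264 to 0.421). With the number as a block, IAA on ammonium (2.15) and IAA beside kinetin and ABA (2.16) in GH3.1 and IAA on both ions in GH3.5 (1.08) gained a call, and no other call of the 3 genes changed.
Leaving out arrays, singly or all of one replicate number (then with a model of pairwise interactions, which assumes that the terms it leaves out are spread), changed a call or a sign in the following. GH3.3 ranged from 1.04 to 1.53 for ABA without IAA, -0.29 to 0.10 for kinetin averaged, -0.93 to 0.65 for the nitrate interaction, -0.12 to 0.38 for nitrate with IAA, -0.27 to 0.81 for nitrate without IAA and -0.14 to 0.47 for kinetin without IAA. The IAA effect of GH3.1 ranged from 2.02 to 2.91 without nitrogen, 1.78 to 2.52 on ammonium, 2.22 to 3.13 on both ions, 1.58 to 2.49 beside kinetin and 1.70 to 2.48 beside kinetin and ABA. Its other ranges were -0.66 to 0.22 for nitrate averaged, -0.041 to 0.55 for ammonium averaged, -0.55 to 0.0037 and -0.33 to 0.12 for the ammonium and ABA interactions, -0.54 to 0.59 and -0.11 to 0.34 for nitrate and ammonium with IAA, and -0.043 to 0.82, -0.24 to 0.20 and -0.38 to 0.064 for ammonium, kinetin and ABA without IAA. The IAA effect of GH3.5 ranged from 0.88 to 1.36 without nitrogen, 0.54 to 1.38 on both ions, 0.81 to 1.41 with no other hormone and 0.71 to 1.38 beside ABA. With single arrays left out it ranged from 0.80 to 1.00 on ammonium and from 0.79 to 1.03 beside kinetin. Leaving out either array of nitrate with ammonium and IAA gave both of these effects a call in GH3.5. Its other ranges were -0.078 to 0.23 for nitrate averaged, -0.084 to 0.067 for ammonium averaged, -0.18 to 0.042 for kinetin averaged, -0.35 to -0.20 for ABA averaged, -0.15 to 0.28 and -0.27 to 0.036 for the ammonium and ABA interactions, -0.19 to 0.11, -0.16 to 0.21 and -0.49 to -0.19 for nitrate, ammonium and ABA with IAA, and -0.10 to 0.019 for ammonium without IAA. The cause of these changes was not tested.
Counts over all probe sets moved by over 1.5 times in most comparisons. The averaged IAA effect had 603 probe sets, 1123 once the array median was a covariate and 160 and 382 on single replicates. Over all settings nitrate averaged had 74 to 348 (201 in the results above), ammonium 27 to 193 (115), kinetin 220 to 742 (470) and ABA 3769 to 6694 (6210). The ABA interaction had 0 to 16 (9) and the kinetin interaction 0 to 5 (2). ABA without IAA had 1447 to 4231 (2965). The share of higher calls under ABA averaged was 31.1%, and 46.2% with quantile normalization. The IAA effects by nitrogen and hormone had 17 to 371 against 66 to 234.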
